A study of Homo sapiens with 6 samples.

Results

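The 8 genes described here encode proteins that bind AU-rich elements in mRNA, together with the adaptors that link one of them to nuclear export. They are ELAVL1, ANP32A, ANP32B, ZFP36, ZFP36L1, ZFP36L2, HNRNPD and KHSRP. They were chosen by name from the pathway, with earlier results of these data known, and found by matching gene symbols to the Ensembl identifiers of the count table. Their counts against all tested genes are therefore a description. All 8 were found among the 58051 identifiers of the table, and all 8 were among the 16974 genes with enough reads to test. Total RNA was sequenced in 6 libraries of DLD-1, a cell line from a human colorectal adenocarcinoma. Every library came from cells in which both copies of TPR, a protein of the nuclear basket of the nuclear pore, carry an auxin-inducible degron (AID) and the fluorescent protein NeonGreen. The cells also carry TIR1, the ubiquitin ligase subunit that recognises the degron in the presence of auxin, inserted at the RCC1 locus. The LMB group (3 libraries) received 200 nM Leptomycin B, an inhibitor of the export receptor CRM1, for 3 h. The LMB+auxin group (3 libraries) received Leptomycin B in the same way, with 1 mM auxin present during the final 2 h to remove TPR protein. Libraries without Leptomycin B or with auxin alone were not analysed here, so each difference below is that of auxin in Leptomycin B-treated cells of 1 edited line. The study's methods describe its RNA-seq replicates as independent and biological, while the labels give only replicate numbers, and the p-values measure the spread between these libraries.

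AU-rich elements are stretches of the 3′ untranslated region (3′UTR), often built from repeats of AUUUA, that set how long many short-lived mRNAs persist. Proteins of the ZFP36 family bind them and recruit the CCR4-NOT deadenylase, which shortens the poly(A) tail, whereas HuR, the product of ELAVL1, binds related sequences and mostly protects the mRNA. HuR shuttles between nucleus and cytoplasm, and ANP32A (pp32) and ANP32B (APRIL) are ligands of HuR that connect it to CRM1, the receptor that Leptomycin B blocks.

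Transcripts of all 3 ZFP36 family genes were 20% to 23% lower in LMB+auxin than in LMB. The change was -20.0% for ZFP36, -21.2% for ZFP36L1 and -22.7% for ZFP36L2, and each was lower in 3 of 3 pairs of same-numbered libraries. None was called by the main test, the edgeR quasi-likelihood test with a call at an adjusted p under 0.05 and a change of at least 1.3-fold. When the replicate number was added to the edgeR model as a block, which compares each LMB+auxin library with the LMB library of the same number, all 3 had an adjusted p under 0.05, but none reached 1.3-fold. ELAVL1, ANP32A, ANP32B, HNRNPD and KHSRP did not pass the adjusted p in either model.

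The genes of the ZFP36 family carry AU-rich elements in their own 3′UTRs, and so does ELAVL1. The sequences below are shown because they are the same kind of element that these proteins bind. In the canonical transcripts of GENCODE 44 (GRCh38), the 9-base motif TTATTTATT was searched on the transcript strand of the 3′UTR. Each line holds 29 bases of the transcript strand, 5′ to 3′, with the motif in capitals. They lie at chr19:39409196-39409224 on the plus strand for ZFP36, chr14:68788077-68788105 on the minus strand for ZFP36L1, chr2:43223448-43223476 on the minus strand for ZFP36L2 and chr19:7961828-7961856 on the minus strand for ELAVL1.
ZFP36: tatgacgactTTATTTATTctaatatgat
ZFP36L1: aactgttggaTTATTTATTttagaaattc
ZFP36L2: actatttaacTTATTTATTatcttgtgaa
ELAVL1: atttatgtatTTATTTATTgaagtgtgaa

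Each of these 4 genes held 1 such motif. Among the 12597 tested coding genes with a 3′UTR, 1136 (9.02%) held at least 1. The shorter motif ATTTA, which is part of the longer one, occurred 5 times in the 708 bases of the ZFP36 3′UTR, 8 times in the 1871 bases of ZFP36L1, 5 times in the 1917 bases of ZFP36L2 and 13 times in the 4910 bases of ELAVL1. Per 1 kb, ZFP36 was the densest, at 7.06, against 4.28 for ZFP36L1, 2.65 for ELAVL1 and 2.61 for ZFP36L2. No ATTTA was found in the 1546 bases of the ANP32A 3′UTR, a state shared with 3587 (28.5%) of the tested coding genes. The other members held only the short motif, with 2 copies in HNRNPD and 1 each in ANP32B and KHSRP, shown for comparison with the same capitals. They lie on the minus strand at chr4:82353569-82353597 and chr4:82352632-82352660 for HNRNPD, on the plus strand at chr9:98015898-98015926 for ANP32B and on the minus strand at chr19:6413219-6413247 for KHSRP.
HNRNPD, first copy: gtagccattaagATTTAtatgaatatttt
HNRNPD, last copy: caaagcaaaataATTTAcagtctggccct
ANP32B: gtatttttaagaATTTAagcgaaataaac
KHSRP: atggtgattgaaATTTAcaaactttgtgt

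The libraries held 28261903 to 35992425 counted reads. The 6 epithelial markers expected of DLD-1 cells were all tested, with a summed level of 7575 to 7627 CPM (counts scaled to a common library total) in LMB and 7317 to 7922 CPM in LMB+auxin. CLDN4, a tight junction protein, was the only one of the 6 called with the block, at -0.45 on the log2 scale (edgeR adjusted p = 4.8e-12). None of the 7 markers of fibroblasts, endothelium and blood passed the filter on low counts, and none exceeded 0.797 CPM in any library. TPR mRNA averaged 167 ± 12.1 CPM without auxin and 188 ± 3.89 CPM with it (SD, n = 3 per group), higher in 3 of 3 pairs with no overlap of the groups. Its log2 difference of 0.17 was under 1.3-fold, and the edgeR adjusted p was 0.954, or 0.0136 when blocked by replicate. DESeq2 with the block gave 0.101, and edgeR with the block gave 0.0409, 0.247 and 0.127 without pairs 1, 2 and 3. The degron acts on the protein, which was not measured in these files. Genes of the aryl hydrocarbon receptor response, which indole compounds such as auxin can engage, had a summed level over 5 genes of 590.1 to 672 CPM in LMB and 807 to 963 CPM in LMB+auxin. TIPARP, a target of that receptor, differed by 0.61 on the log2 scale (edgeR adjusted p = 0.261 without the block and 4.4e-19 with it, and 7.5e-06 and 7.5e-21 in DESeq2). CYP1B1, a cytochrome P450, differed by 0.35 (edgeR adjusted p = 2.6e-07 with the block), and CYP1A1, another, by 1.16 without the block (0.644) and 1.19 with it (0.181). DESeq2 passed CYP1A1 without the block (adjusted p = 8.0e-07) and with it (0.00148), and edgeR with the block gave 0.542, 1.8e-39 and 5.7e-59 without pairs 1, 2 and 3. AHRR (0.16, edgeR adjusted p with the block = 0.0953) and NQO1 (0.08, 0.279) did not pass, also not in DESeq2 with the block (0.414 and 0.507). Both were named after their values were seen. By the edgeR adjusted p with the block, 2 of the 5 genes passed. The part of this response in the results below was not tested.

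ZFP36 (ENSG00000128016, chr19:39406847-39409412, plus strand, 2 exons) encodes tristetraprolin, which binds AU-rich elements and brings deadenylases to the mRNA. It was at 20.5, 27.2 and 22.7 CPM in LMB replicates 1, 2 and 3, and at 16.5, 22.1 and 17.7 CPM in LMB+auxin replicates 1, 2 and 3. The groups overlapped, because LMB+auxin replicate 2 lay above LMB replicate 1. Within pairs the log2 difference was -0.32, -0.30 and -0.36, so the libraries with the highest ZFP36 in each group shared a number. The fitted log2 difference was -0.32 (SE 0.14), with a 95% interval of -0.63 to -0.02 (edgeR adjusted p = 0.954). With the block it was -0.32 (SE 0.07), with an interval of -0.46 to -0.19 and an edgeR adjusted p of 6.6e-04. DESeq2 with the same block gave an adjusted p of 0.104, and edgeR with the block gave 0.117 without pair 3.

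ZFP36L1 (ENSG00000185650, chr14:68787660-68796253, minus strand, 2 exons) encodes a paralogue of tristetraprolin with the same pair of CCCH zinc fingers. Its level was 94.2, 115 and 99.9 CPM in LMB and 78.6, 87.8 and 77.6 CPM in LMB+auxin, for replicates 1, 2 and 3. All LMB+auxin libraries lay below all LMB libraries. The means were 103 ± 11.0 and 81.3 ± 5.62 CPM (SD, n = 3 per group), and the fitted log2 difference was -0.34 (SE 0.09), with an interval of -0.54 to -0.14 (edgeR adjusted p = 0.954). With the block the standard error was 0.05, the interval was -0.44 to -0.24 and the edgeR adjusted p was 2.6e-07. ZFP36L1 was the one member that also passed DESeq2 with the block (adjusted p = 1.5e-05). It kept an edgeR adjusted p under 0.05 with the block when each pair was left out, at 2.4e-09, 0.00307 and 0.0171 without pairs 1, 2 and 3. Without pair 1 its log2 fold change of -0.38 reached 1.3-fold.

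ZFP36L2 (ENSG00000152518, chr2:43222402-43226606, minus strand, 2 exons), the third family member, was the least abundant, with 270 to 498 reads per library. It was at 14.3, 13.7 and 13.9 CPM in LMB and at 12.1, 9.27 and 11.0 CPM in LMB+auxin, for replicates 1, 2 and 3. The groups did not overlap, and the spread was wider in LMB+auxin, at 1.42 CPM, than in LMB, at 0.292 CPM (SD, n = 3 per group). Replicate 2 gave the largest of the within-pair log2 differences, -0.57, against -0.24 and -0.33 for replicates 1 and 3. The fitted log2 difference was -0.37 (SE 0.11), with an interval of -0.62 to -0.12 (edgeR adjusted p = 0.954). With the block the interval was -0.54 to -0.21 and the edgeR adjusted p was 0.00113. Without pair 2 it was -0.28, with an edgeR adjusted p of 0.131, and DESeq2 with the block gave 0.19. Of its exonic bases, 22.4% overlap ENSG00000287387 on the opposite strand, a gene that is not in the count table, and the strand setting of the read counting is not given in the sources used here. Exons of ZFP36L1 shared 7.92% of their bases with another gene on the same strand that is not in the count table. For ELAVL1 and HNRNPD, 7.58% and 3.56% overlap genes on the opposite strand, which had at most 11 and 28 reads in a library.

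**Figure D1:**
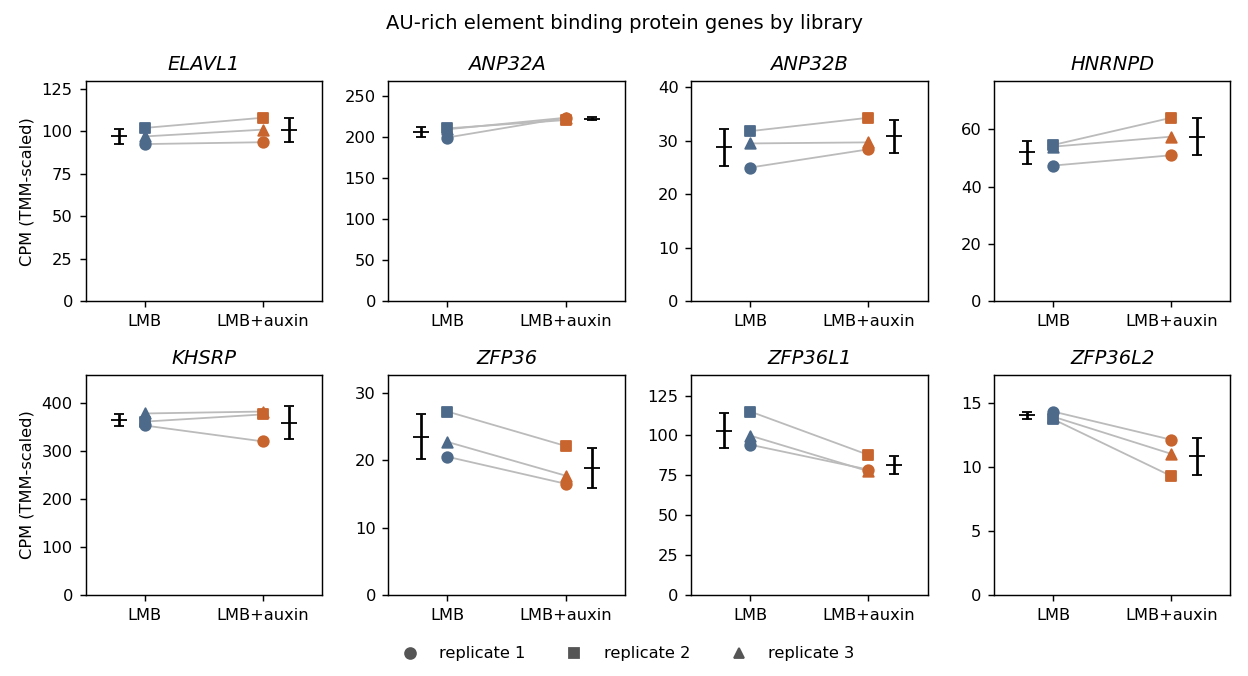
Level of each of the 8 genes in CPM (vertical axes, scaled by TMM factors and starting at 0) in the LMB (blue) and LMB+auxin (orange) libraries. Marker shape and a grey line join libraries of the same replicate number, and black bars are the mean ± SD (n = 3). The 3 ZFP36 family genes were lower in every pair, while KHSRP was lower in 1 pair and higher in 2.

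ELAVL1 (ENSG00000066044, chr19:7958573-8005659, minus strand, 6 exons), which encodes HuR, was at 92.5, 102 and 97.0 CPM in LMB and 93.6, 108 and 101 CPM in LMB+auxin. The groups overlapped, although each LMB+auxin library lay slightly above the LMB library of its number. The fitted log2 difference was 0.05 (SE 0.07), with an interval of -0.11 to 0.22 (edgeR adjusted p = 0.957). With the block the interval was -0.04 to 0.15 and the edgeR adjusted p was 0.563, so a change of 1.3-fold in either direction lay outside the interval.

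ANP32A (ENSG00000140350, chr15:68778535-68820897, minus strand, 7 exons) encodes pp32, an acidic leucine-rich nuclear phosphoprotein and HuR ligand. It was at 199, 210.1 and 209 CPM in LMB and at 223, 220.2 and 223 CPM in LMB+auxin. Here the LMB+auxin libraries all lay above the LMB libraries, and the fitted change was 7.76%. The log2 fold change of 0.11 had an interval of -0.03 to 0.24 (edgeR adjusted p = 0.954) and, with the block, of 0.02 to 0.20 (edgeR adjusted p = 0.155). ANP32B (ENSG00000136938, chr9:97983341-98015943, plus strand, 7 exons), the gene of APRIL, was at 25.0, 31.8 and 29.5 CPM in LMB and at 28.4, 34.3 and 29.7 CPM in LMB+auxin. Its groups overlapped, and its log2 fold change of 0.10 had an interval of -0.15 to 0.34 (edgeR adjusted p = 0.956), or -0.02 to 0.22 with the block (edgeR adjusted p = 0.371).

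HNRNPD (ENSG00000138668, chr4:82352498-82374503, minus strand, 9 exons) encodes AUF1, whose isoforms mostly promote decay of mRNAs with AU-rich elements. It was at 47.4, 54.6 and 54.0 CPM in LMB and at 51.0, 64.1 and 57.5 CPM in LMB+auxin, with LMB+auxin replicate 1 below LMB replicates 2 and 3. Its log2 fold change was 0.15 with an interval of -0.07 to 0.36 (edgeR adjusted p = 0.954). With the block it was 0.14, with an interval of 0.04 to 0.25 and an edgeR adjusted p of 0.112. KHSRP (ENSG00000088247, chr19:6413102-6424811, minus strand, 19 exons) encodes KSRP, a KH-domain protein that promotes decay and also takes part in microRNA processing. It was at 353, 361 and 378 CPM in LMB and at 319.9, 376 and 382 CPM in LMB+auxin, which overlapped. Its log2 fold change was -0.02, with an interval of -0.20 to 0.16 (edgeR adjusted p = 0.986) and, with the block, of -0.11 to 0.06 (edgeR adjusted p = 0.809).

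**Figure D2:**
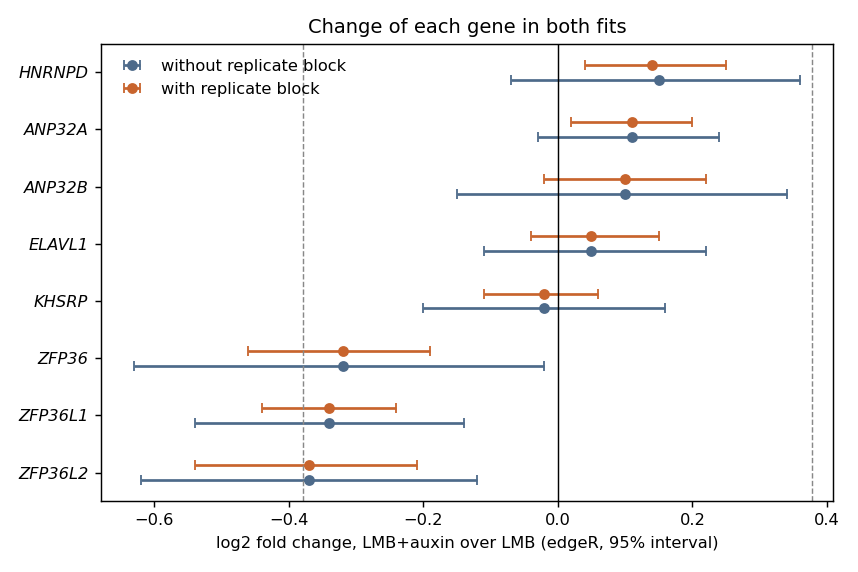
Log2 fold change of each gene, LMB+auxin over LMB (horizontal axis), with its 95% interval from edgeR without (blue) and with (orange) the replicate block. Dashed lines mark 1.3-fold, and the ZFP36 family points lie between -0.37 and -0.32, inside the lower line, while the other 5 genes lie between -0.02 and 0.15.

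Counted over the 8 genes, 0 were called by edgeR without the block, where 0.00589% of all tested genes (1 of 16974) were called, and DESeq2 and limma-voom without the block also called 0. Without the block, 3 of 8 had an unadjusted p under 0.05 and were lower and 0 were higher, against 3.35% of all tested genes lower. With the block, edgeR called 0 of 8, against 1.18% of all tested genes in either direction, and DESeq2 with the block called 0. By the adjusted p alone with the block, a rule added after the data were seen, 3 of 8 were lower and 0 were higher, against 3.25% of all tested genes lower and 1.11% higher. The groups did not overlap for 2 members that were lower (ZFP36L1 and ZFP36L2) and for 1 that was higher (ANP32A), against 6.63% and 4.90% of all tested genes. The median log2 fold change over the 8 genes was 0.02, and over all tested genes -0.0027. In RNA from a whole culture, fewer cells expressing a gene and less RNA per cell cannot be told apart.

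Levels per 1 kb used the merged length of all annotated exons of a gene, from 1870 bases for ANP32B to 7544 for ANP32A. This length can exceed that of the transcript expressed, so the order of genes below depends on the annotation. By this measure KHSRP was the most abundant of the 8, at 70.1 ± 4.52 CPM per kb. ANP32A was next at 28.4 ± 1.28 (SD over 6 libraries, for these values and those that follow). ANP32B at 15.9 ± 1.67, ZFP36L1 at 14.3 ± 2.21 and ELAVL1 at 14.2 ± 0.814 did not differ beyond their spread over both groups. Within LMB+auxin, however, ZFP36L1 (12.2, 13.6 and 12.0 CPM per kb) lay below ANP32B (15.2, 18.4 and 15.9) in every library. In LMB their libraries overlapped, with means of 16.0 and 15.4. Which of these genes lies higher depends on the merged lengths, 6466 bases for ZFP36L1 and 1870 for ANP32B. Without scaling by length, the lowest ZFP36L1 library (77.6 CPM) lay above the highest of ANP32B (34.3 CPM). ZFP36 at 10.7 ± 1.94 overlapped the lowest libraries of those genes, and HNRNPD at 7.81 ± 0.815 overlapped ZFP36 in turn. ZFP36L2 was lowest at 3.35 ± 0.532, with every library below every library of the other members.

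Across the 6 libraries, the members that moved together on the log2 CPM scale were not only the family members. Pearson's r was 0.941 between ZFP36 and ZFP36L1, but 0.277 between ZFP36 and ZFP36L2 and 0.574 between ZFP36L1 and ZFP36L2. ELAVL1 followed HNRNPD (r = 0.956) and ANP32B (r = 0.921), and ZFP36L2 ran opposite to HNRNPD (r = -0.838). Among all tested genes, the patterns most like that of ELAVL1 included those of IGF2R (r = 0.997) and ENSG00000283553 (r = 0.994), and most like that of ZFP36 were TMEM104 (r = 0.997), ENSG00000273419 (r = 0.996) and B3GNT9 (r = 0.994). These values describe 6 points that share groups, replicate numbers and depth.

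The 3 members that were lower are also the 3 with 2 exons, whereas the others have 6 to 19. This grouping was made after the values were seen and was not tested. Among the tested coding genes, 73 of 552 with 2 exons (13.2%) were lower by the adjusted p alone with the block, and 2 were higher. The share that was lower was 20.4% of 255 genes with 1 exon, 5.02% of 2609 with 3 to 5, 2.04% of 3781 with 6 to 10 and 1.59% of 5400 with over 10. Of the 2-exon genes with the 9-base motif, 16 of 58 (27.6%) were lower. These 58 are part of the 552, and their median 3′UTR of 2892 bases was longer than the 1179 of all 552. The part of 3′UTR length in these shares was not tested. The 3 ZFP36 family genes are themselves counted in the 73 of 552 and in the 16 of 58. Over all exon numbers, 4.14% of the genes with that motif were lower and 1.94% higher, against 3.25% and 1.14% of those without it. Genes with the motif had a median log2 fold change of 0.03 in the blocked model, and those without it 0.0043. Their median 3′UTRs were 3136 bases with the motif and 1156 without it. ELAVL1, with the motif and 6 exons, did not pass.

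**Figure D3:**
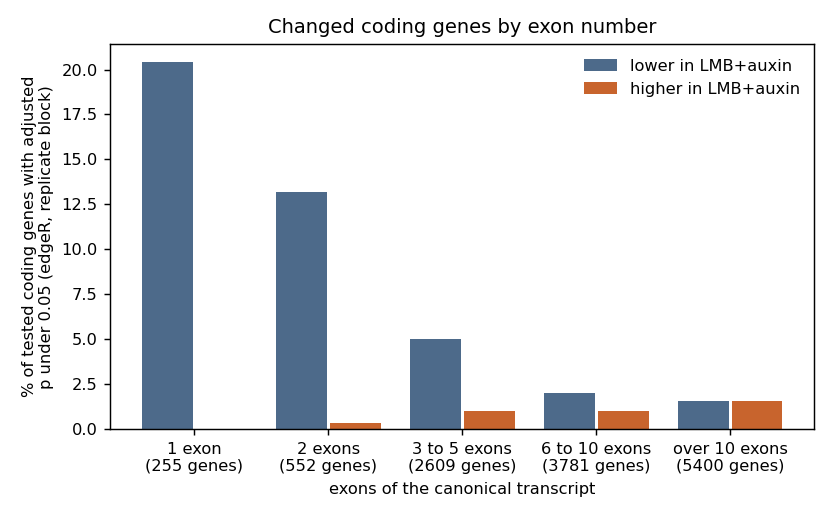
Percent of tested coding genes (vertical axis, from 0) that were lower (blue) or higher (orange) in LMB+auxin at an edgeR adjusted p under 0.05 with the replicate block, by the number of exons of the canonical transcript (horizontal axis, number of genes in brackets). The share that was lower runs from 20.4% at 1 exon to 1.59% over 10 exons, and the 3 ZFP36 family genes belong to the bar of 2 exons, at 13.2%.

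HuR and its adaptors leave and enter the nucleus with further partners. Of 5 such genes (XPO1, TNPO1, TNPO2, SET and ANP32E), 0 passed the edgeR adjusted p with or without the block, and at an unadjusted p under 0.05 with the block 1 was higher and 1 lower, against 8.10% and 11.8% of all tested genes. DESeq2 with the block also passed none of them. XPO1, which encodes CRM1, averaged 947 ± 60.0 CPM without auxin and 957 ± 109.5 CPM with it (SD, n = 3 per group). TNPO2, an import receptor of HuR, had a log2 difference of -0.13 (edgeR adjusted p with the block = 0.169), SET, a pp32 partner, 0.10 (0.159), and ANP32E, a relative of the adaptors, 0.08 (0.362).

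Of 26 other genes of AU-rich element binding or related RNA binding, 21 were tested. By the adjusted p with the block 1 was lower and 0 were higher, against 3.25% and 1.11% of all tested genes. The median log2 fold change was 0.03. The lower one was ZC3H12A, which encodes Regnase-1, an endonuclease that cleaves inflammatory mRNAs. Its mean was 23.3 ± 0.759 CPM without auxin and 18.9 ± 1.10 CPM with it (SD, n = 3 per group). The log2 difference was -0.30, and the edgeR adjusted p was 0.954, or 0.00193 when blocked by replicate. DESeq2 with the block gave 0.165, and edgeR with the block gave 0.0225, 0.0266 and 0.0705 without pairs 1, 2 and 3. IGF2BP3, a binding protein that stabilises mRNAs, had a log2 difference of 0.15 (edgeR adjusted p with the block = 0.117), and RC3H1, the gene of Roquin-1, -0.10 (0.242).

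All 25 genes of deadenylation and decapping, the machinery that ZFP36 proteins recruit, were tested, and their median log2 fold change was 0.06. With the block 3 were lower and 1 higher by the adjusted p, against 3.25% and 1.11% of all tested genes. At 1.3-fold with the block, 0 were called by edgeR or by DESeq2. The lower ones were TOB2 (log2 fold change -0.26, edgeR adjusted p with the block = 6.3e-04), TOB1 (-0.24, 0.0408) and EDC4 (-0.17, 0.0229). TOB1 and TOB2 are antiproliferative adaptors of the CCR4-NOT complex, and EDC4 is a scaffold of decapping. EDC3, another decapping factor, was higher (0.22, 0.00538). DESeq2 with the block passed TOB2 (adjusted p = 0.0334) but not TOB1 (0.438), EDC4 (0.2) or EDC3 (0.11). In edgeR with the block, TOB2 was at 0.203 without pair 3, EDC3 at 0.346 without pair 2 and 0.0889 without pair 3, and TOB1 and EDC4 did not pass without any one of the pairs. No catalytic CCR4-NOT subunit passed, with CNOT7 at 0.10 (0.196) and CNOT6L at 0.11 (0.295), genes named after their values were seen. Of 10 kinases and modifiers that act on these proteins, 0 passed the edgeR adjusted p with or without the block, and at an unadjusted p under 0.05 with the block 1 was higher and 1 lower, which is near the 8.10% and 11.8% of all tested genes. DESeq2 passed none of those it gave an adjusted p. MAPK14, the p38 kinase upstream of tristetraprolin phosphorylation, had a log2 difference of 0.10 (edgeR adjusted p with the block = 0.262), and CHEK2, a kinase of HuR, 0.09 (0.459).

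Of 42 mRNAs known to carry AU-rich elements, 36 were tested, and 14 of the 36 held the 9-base motif. They moved both ways, with 5 lower and 4 higher by the adjusted p with the block, against 3.25% and 1.11% of all tested genes. Their median log2 fold change was -0.0042, and 3 were called at 1.3-fold, against 1.18% of all tested genes. The called genes were all higher. FOS, a transcription factor of the immediate-early response, had a log2 difference of 0.58 (edgeR adjusted p with the block = 1.5e-06), IER3, a regulator of cell survival, 0.52 (2.8e-16), and KLF6, a zinc finger transcription factor, 0.50 (4.9e-07). DESeq2 with the block gave 0.185 for FOS, 2.1e-18 for IER3 and 0.15 for KLF6. The within-pair log2 differences of FOS were 0.31, 0.94 and 0.40. Without pair 2 its value with the block was 0.37, under 1.3-fold (edgeR adjusted p = 0.0144). PIM1, a serine/threonine kinase, was also higher (0.35, 3.9e-07). The lower ones were MCL1, a survival protein of the BCL2 family (-0.35, 1.4e-08), JUNB (-0.37, 1.9e-06) and JUN (-0.22, 0.0474), both AP-1 subunits, CDKN1A, a cell cycle inhibitor (-0.35, 0.0158), and LIF, a cytokine (-0.19, 0.0262). DESeq2 with the block passed PIM1 (adjusted p = 5.5e-05), MCL1 (1.7e-08) and JUNB (0.00114), but not JUN (0.438), CDKN1A (0.356) or LIF (0.266). JUNB, JUN, CDKN1A and LIF were named after their values were seen.

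**Figure D4:**
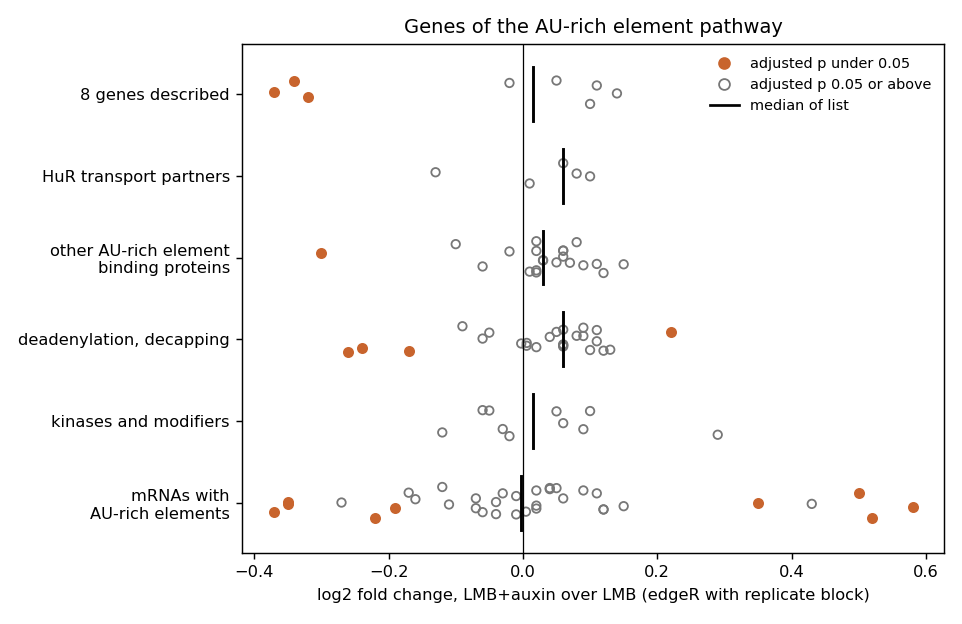
Log2 fold change of each tested gene, LMB+auxin over LMB (horizontal axis), from edgeR with the replicate block, for the 8 genes described and 5 lists of related genes (rows). Filled points have an adjusted p under 0.05, vertical bars are list medians, and the heights of points within a row carry no value. The ZFP36 family genes lie at -0.37 to -0.32, and the mRNAs with AU-rich elements hold filled points on both sides, from -0.37 to 0.58.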

How the data were processed

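Libraries were prepared by the authors from ribosomal RNA-depleted total RNA with a stranded kit and sequenced as paired ends. The authors aligned reads to GRCh38 with STAR and deposited raw gene counts from featureCounts (2.6.1c and 1.5.2 per the labels), with no normalization. The strand setting of the counting is not given in the sources used here.

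Here, genes with CPM above 1 in at least 3 libraries were kept, and library totals were summed over them. Counts were scaled by TMM and tested with the edgeR 4.0.16 quasi-likelihood test (R 4.3.3) in all 6 libraries, with Benjamini-Hochberg adjustment over 16974 genes. CPM values use the same scaling. The scripts were tested on simulated data. The replicate number as a block, DESeq2 1.42.0 and limma-voom (limma 3.58.1) were alternatives. Deviations from the group means correlated at 0.531, 0.691 and 0.273 between libraries of the same number. Between libraries of unlike number they ran from -0.573 to 0.146, and both values for 1 against 3 were positive (0.142 and 0.146). The numbers, which come from the sample titles, were taken to pair the libraries. No pair of libraries, within or between groups, agreed within sampling noise (chi-square per degree of freedom 3.76 to 43.9). By this measure LMB replicate 1 was nearer to LMB+auxin replicate 3 (6.87) than to LMB+auxin replicate 1 (11.9). Gene positions, exons and 3′UTRs came from GENCODE 44 (GRCh38), and the 3′UTR sequences from its transcript sequences. The stretches printed above were checked against the GRCh38 genome. Of the 58051 identifiers, 56948 had a symbol. The titles give 2 h of treatment, whereas the incubation field gives 3 h.

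Members and gene lists were chosen with earlier results of these data known. The text names all 8 members, TPR and XPO1, the 3 genes with the smallest p in each list, list genes that were called, and the 3 genes most like ELAVL1 and ZFP36 in pattern. Of the genes this rule names, 2 are not reported here.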

Additional observations from a re-analysis of the deposited data

How the results depend on the processing

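Over all tested genes, edgeR without the block called 1 gene. DESeq2 called 11, scaling by library size alone 0 and no filter on low counts 39, and leaving out 1 library at a time gave 0 to 5. The replicate block called 201 genes (51 higher and 150 lower), or 31 with DESeq2, and 133, 158 and 134 without pairs 1, 2 and 3. By the adjusted p alone, a rule added after seeing the data, the block gave 740 genes, 456, 351 and 166 without pairs 1, 2 and 3, and 93 with DESeq2. Library totals over all rows in place of the tested genes were also tried after the results had been seen. They gave 202 genes with the block and 745 by the adjusted p alone, and left the 8 members at 3 by the adjusted p alone and at 0 called. The block called 0 of the 8 members, but 2 without pair 1 (ZFP36L1 and ZFP36L2) and 1 without pair 3 (ZFP36L2). By the adjusted p alone it gave 3, with 3, 2 and 2 without pairs 1, 2 and 3 and 1 with DESeq2. Of the genes of the 5 related lists, 0 were called by edgeR, DESeq2 or limma-voom without the block. At an unadjusted edgeR p under 0.05 without the block, 3 were higher and 3 lower, against 173 and 568 of all 16974 tested genes. No filter gave 1, the block 3 (also with totals over all rows), the block with DESeq2 1, and the block without pairs 1, 2 and 3 gave 2, 3 and 5. Over all tested genes, edgeR with the block called 1.18%, and by the adjusted p alone 3.25% were lower and 1.11% higher. For the list genes, the adjusted p alone with the block gave 14 (also with totals over all rows), 11, 8 and 6 without pairs 1, 2 and 3, and 5 with DESeq2. The cause of these differences was not tested.

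Among the 8 members, 138 of 144 log2 fold changes under alternatives kept their direction and side of the threshold, 3 passed it and 3 reversed. KHSRP reversed to 0.04 in the block without pair 1, with -0.06 to 0.06 when 1 library was left out. XPO1 reversed to -0.05 in the block without pair 1, with -0.07 to 0.09 when 1 library was left out. CDH1, an epithelial marker, ran from -0.0059 to 0.12 when 1 library was left out. The ZFP36 family genes stayed lower throughout, from -0.46 to -0.20 for ZFP36, -0.40 to -0.25 for ZFP36L1 and -0.46 to -0.27 for ZFP36L2 when 1 library was left out. The median over all genes moved between -0.02 and 0.0061.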
